A study of Mus musculus with 6 samples.

Results

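The genes described here belong to bone morphogenetic protein (BMP) signalling along the crypt-villus axis of the small intestine. They were chosen by symbol: the ligands Bmp2, Bmp4, Bmp5 and Bmp7, the receptor Bmpr1a, the target genes Id1, Id2 and Id3, the intracellular inhibitor Smad6 and the secreted antagonist Grem1. All 10 were found among the 24452 symbols of the series. BMP ligands bind pairs of type I and type II receptor kinases, which phosphorylate SMAD1, SMAD5 and SMAD9, and these enter the nucleus with SMAD4 and switch on genes such as the Id genes. In the gut the ligands act mainly on the villus and upper crypt, where they restrain stem cell renewal, while stromal antagonists such as gremlin 1 keep the signal low at the crypt base. SMAD6 and SMAD7 are induced by the signal and dampen it.

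RNA-seq of polyA RNA was made from small intestine of C57BL/6 mice at postnatal day 14, an age before weaning. The design has 3 wild type libraries and 3 with the genotype label Erk1/2 -/-, called labelled knockout here. The labels name no Cre driver, intestinal segment or sex. The series title asks what negative feedback through the ERK kinases, which end the RAS-MAPK cascade, does in the intestine after birth. Values are normalised counts, whole numbers that the authors had already scaled between libraries.

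The libraries differed in more than their label. The normalised counts summed to between 13641468 and 17153570 per library. Mapk3, which encodes ERK1, was not called lower in the libraries labelled knockout. It had 3142, 2788 and 2004 across wild type 1 to 3, against 3363, 2280 and 2734 across labelled knockout 1 to 3. The log2 fold change was 0.09 ± 0.22 (adjusted p = 0.819 by limma), and its sign turned with equal library totals, at -0.0888. This total over the whole gene does not bear out the genotype label, so each direction below is that of the label only. Wild type 3 and labelled knockout 1 stood apart in markers of position along the gut. Pdx1, a transcription factor of the duodenum, was at 3 and 14 in them and at 343 to 718 in the other 4, and Fgf15, an ileal hormone, was at 1975 and 390 against 0 to 13. Xist, which is transcribed from the inactive X chromosome, was at 4596 to 6551 in wild type 3 and labelled knockout 2 and 3, where the Y-linked Ddx3y was at 0, and at 2 to 19 in the rest, where Ddx3y was at 177 to 428. Sex and gut position therefore both varied within the labels. No label ties a library to its own animal, and the p-values therefore cover only the spread among the 6 libraries. Each label held libraries of both Xist and Ddx3y patterns and so more than 1 animal.

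In the libraries labelled wild type, target genes were the most abundant members on a scale of normalised count per kilobase of exon. Id1 stood at 1552 ± 243 per kb (SD, n = 3), Id3 at 929 ± 123 and Id2 at 518 ± 174. The ID proteins bind basic helix-loop-helix transcription factors and stop them from binding DNA. Bmp7 at 355 ± 181 and Smad6 at 344 ± 67 came next, followed by Bmp4 at 249.7 ± 16.1. Lower levels were found for Bmp2 at 126 ± 2.3, Bmpr1a at 109 ± 17.9, Grem1 at 70.2 ± 12.8 and Bmp5 at 65.2 ± 3.4. Neighbours in this order that overlapped between wild type libraries were Id2 with Bmp7, Bmp7 with Smad6, and Grem1 with Bmp5, although Id2 was above Bmp7 within each wild type library. Bmp2 and Bmpr1a did not overlap, but the gap of their means was within 1 SD of Bmpr1a.

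Of the 10 members, 2 were called lower in the libraries labelled knockout, Bmp5 and Smad6, and none was called higher (limma adjusted p under 0.05, likewise with limma-voom). At an unadjusted p under 0.05, 4 were lower and none higher, where 14.5% and 15.8% of all genes tested were. Among all 14686 genes tested, 8.79% were called, 4.85% higher and 3.94% lower. All 10 members passed the filter on low values. The labels' libraries did not overlap for 5 members, all lower in labelled knockout (Bmp2, Bmp5, Id2, Id3 and Smad6), where 37.6% of all genes tested did not overlap in either direction, 19.8% higher and 17.8% lower. The median log2 fold change of the members was -0.48, against -0.01 over all genes tested. Of all calls 55.2% were higher, a share that was 44.5% with upper-quartile scaling and 29.7% with equal library totals, which moved the median of all genes to -0.19. Under those totals Id2 and Id3 passed as well, with log2 fold changes of -1.63 and -0.70. With sex as a covariate, an alternative chosen after seeing the data, 1 member passed (Smad6) and 3.13% of all genes were called.

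**Figure D1:**
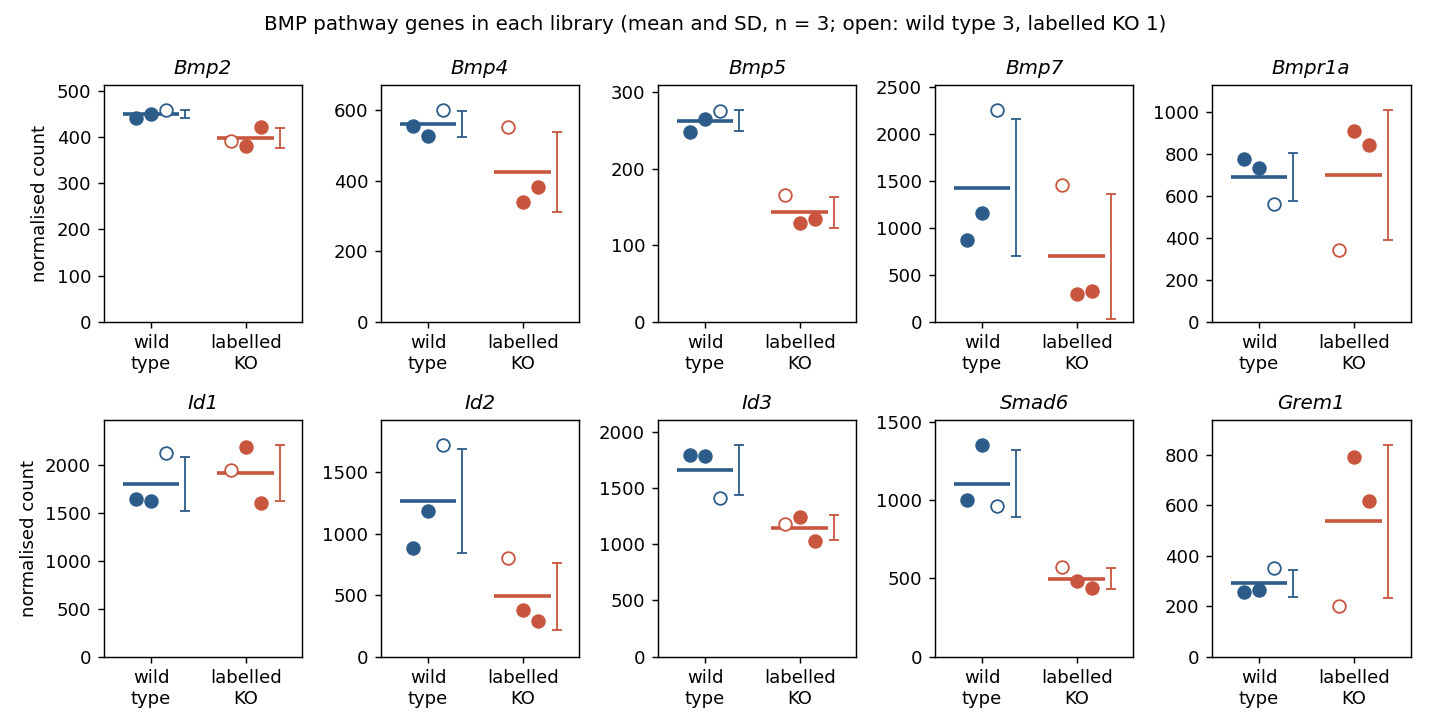
Normalised count of each of the 10 members in each library, with a vertical axis from 0 in each panel. Points are libraries, horizontal lines are means and bars are SD (n = 3); open points are wild type 3 and labelled knockout 1, which stood apart in gut position markers. Bmp2, Bmp5, Id2, Id3 and Smad6 lie lower in all 3 labelled knockout libraries, while for Bmp4, Bmp7, Bmpr1a, Id2 and Grem1 the open labelled knockout point lies far from the other 2.

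To show the DNA in front of the members that the results turn on, the 250 bases before the transcription start are given for Smad6 and Bmp5, which passed the test, and for Grem1, whose labelled knockout libraries were divided. Sequences are from RefSeq on GRCm38.p6, where 7 of the 10 members were matched (all but Bmp2, Bmp7 and Id1). Capitals mark GGCGCC, a GC-rich sequence that BMP-activated SMADs can bind and that reads the same on both strands, and GTCTG or its reverse complement CAGAC, the core of the classical SMAD-binding element. GGCGCC followed by CAGAC could share a base, which did not occur in these windows.
Smad6, chr9:64022060-64022309, minus strand: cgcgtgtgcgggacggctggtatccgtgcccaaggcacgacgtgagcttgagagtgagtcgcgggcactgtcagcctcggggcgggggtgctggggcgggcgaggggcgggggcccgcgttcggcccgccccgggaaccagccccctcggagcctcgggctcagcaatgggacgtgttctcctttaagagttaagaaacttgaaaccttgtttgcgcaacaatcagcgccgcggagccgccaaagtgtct
Bmp5, chr9:75775115-75775364, plus strand: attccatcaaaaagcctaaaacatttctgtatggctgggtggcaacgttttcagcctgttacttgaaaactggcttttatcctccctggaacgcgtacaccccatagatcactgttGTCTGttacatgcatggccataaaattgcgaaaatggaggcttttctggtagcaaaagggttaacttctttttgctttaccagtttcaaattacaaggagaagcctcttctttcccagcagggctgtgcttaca
Grem1, chr2:113758649-113758898, minus strand: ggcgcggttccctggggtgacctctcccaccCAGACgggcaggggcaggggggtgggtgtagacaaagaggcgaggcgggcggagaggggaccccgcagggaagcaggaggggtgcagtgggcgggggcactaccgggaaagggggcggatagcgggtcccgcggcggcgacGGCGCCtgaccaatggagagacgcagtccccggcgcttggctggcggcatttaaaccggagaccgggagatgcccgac

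The Smad6 window held no match to these letters and was 66.8% G and C. That of Bmp5 was 42.8% G and C and held GTCTG at position -134, counted from the start site to the first base of the match. Grem1 was 72.0% G and C with CAGAC at -219 and GGCGCC at -78. Of the 7 members with a sequence, 3 had GGCGCC (Bmpr1a, Id2 and Grem1) and 3 had GTCTG or CAGAC (Bmp5, Id3 and Grem1). Over all 32851 promoter windows of this length the shares were 9.59% and 42.2%. A match is only a run of letters, and no factor binding was measured.

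Of the 4 member ligands, 1 was called lower and none higher, where 3.94% and 4.85% of all genes tested were. Bmp5 (chromosome 9, 75775364 to 75900310, plus strand, GRCm38), a ligand of the gut stroma, had 248, 264 and 275 normalised counts across wild type 1 to 3, against 166, 129 and 134 across labelled knockout 1 to 3. The groups did not overlap, and the wild type libraries lay within a narrow band. Its mean fell from 262 ± 13.6 to 143 ± 20.1 (SD, n = 3 each), which is a log2 fold change of -0.88 ± 0.16 (SE, adjusted p = 0.0262 by limma). Leaving out any library other than labelled knockout 1 ended the call, with adjusted p-values of 0.0574 to 0.145 and log2 fold changes of -0.92 to -0.81. With sex as a covariate it was -0.84 with an adjusted p of 0.0566. The call was also lost with the replicate number as a block (adjusted p = 0.1045 by limma).

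Bmp7 varied more between libraries of the same label than the other 3 member ligands. It had 868, 1159 and 2249 across wild type 1 to 3, against 1460, 301 and 324 across labelled knockout 1 to 3. The highest library of each label was the one with low Pdx1, and labelled knockout 1 exceeded 2 of the wild type libraries. The log2 fold change of -1.33 ± 0.65 did not pass (adjusted p = 0.215 by limma, 95% interval -2.86 to 0.21). Without labelled knockout 1 it was -2.07 and passed, with an adjusted p of 0.0180. In that fit both labelled knockout libraries had Xist, and 20.6% of all genes were called. With sex as a covariate the log2 fold change of Bmp7 was -1.15 and did not pass (adjusted p = 0.322 by limma).

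Bmp4, the main BMP ligand of the villus mesenchyme, had 556, 528 and 600 across wild type 1 to 3, against 554, 340 and 382 across labelled knockout 1 to 3. Labelled knockout 1 lay within the wild type range and the other 2 below it. The log2 fold change was -0.43 ± 0.20 (adjusted p = 0.203 by limma), and -0.64 without labelled knockout 1, where it passed at 0.0192. In that fit both labelled knockout libraries had Xist, and 20.6% of all genes were called. With sex as a covariate the log2 fold change of Bmp4 was -0.35 and did not pass (adjusted p = 0.303 by limma). Bmp2 was the steadiest member, with 441, 450 and 457 against 390, 381 and 422. Its groups did not overlap, but the log2 fold change of -0.18 ± 0.12 did not pass (adjusted p = 0.370 by limma). Its 95% interval was -0.47 to 0.12.

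Per kilobase of exon, the 4 ligands together had 649, 715 and 1023 across wild type 1 to 3, against 761, 365 and 402.5 across labelled knockout 1 to 3. Bmp7 made up 33.3%, 40.3% and 54.7% of that sum in wild type 1 to 3. It made up 47.8% in labelled knockout 1 and 20.5% and 20.0% in labelled knockout 2 and 3. The low sums of the last 2 libraries thus went with a low Bmp7 share.

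**Figure D2:**
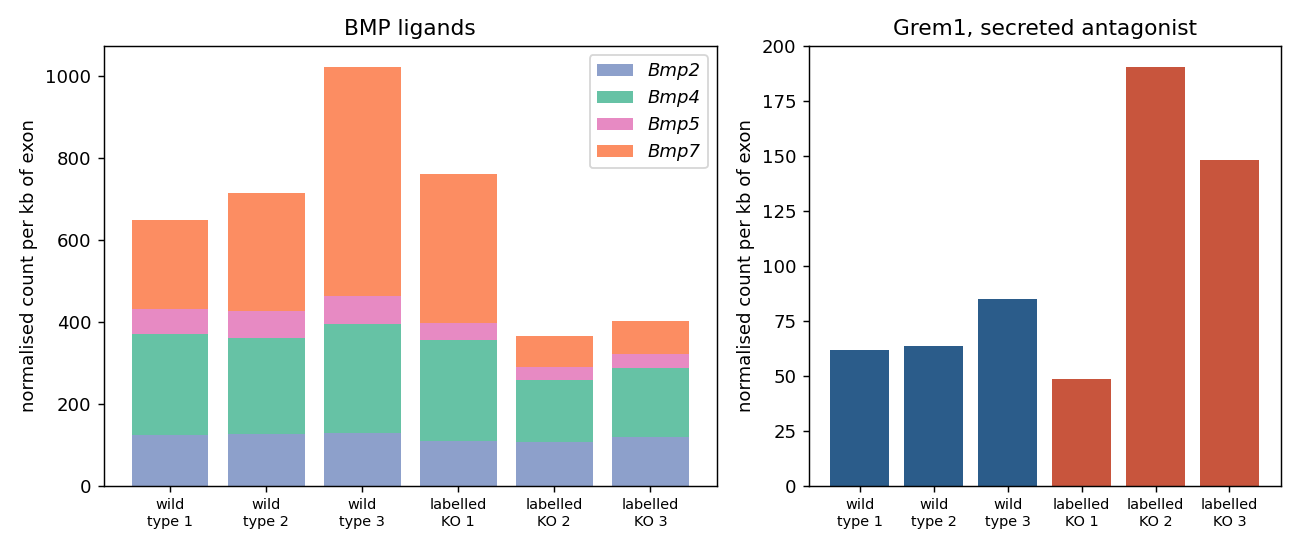
Normalised count per kilobase of exon in each library for the 4 ligands (stacked bars, left) and for Grem1 (right), both axes from 0. Ligand sums are lowest, at 365 and 402.5, in labelled knockout 2 and 3, the libraries where Grem1 is highest, at 190.7 and 148.

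Bmpr1a, a type I receptor that the epithelium needs to receive the signal, was not called. It had 779, 733 and 563 across wild type 1 to 3, against 345, 912 and 844 across labelled knockout 1 to 3. Labelled knockout 1 was the lowest library and the other 2 of that label the highest. The log2 fold change was -0.09 ± 0.38 (adjusted p = 0.885 by limma), and 0.36 without labelled knockout 1 (adjusted p = 0.159). Its 95% interval with all libraries, -0.98 to 0.80, includes a fall of nearly 1 log2 unit.

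None of the 3 Id genes was called with all libraries. Id2, which is expressed in villus epithelium and in lymphoid cells, had 882, 1185 and 1719 across wild type 1 to 3, against 800, 375 and 291 across labelled knockout 1 to 3. All labelled knockout libraries were below all wild type ones, by a small margin for labelled knockout 1. Its log2 fold change was the largest of the members at -1.45 ± 0.41, yet it missed the threshold (adjusted p = 0.0695 by limma). It passed without labelled knockout 1, at -1.88 (adjusted p = 0.0120). In that fit both labelled knockout libraries had Xist, and 20.6% of all genes were called. With sex as a covariate the log2 fold change of Id2 was -1.36 and did not pass (adjusted p = 0.120 by limma).

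Id3 had 1797, 1786 and 1409 across wild type 1 to 3, against 1179, 1242 and 1026 across labelled knockout 1 to 3. The groups did not overlap, and wild type 3 was nearest to the other label. The log2 fold change of -0.53 ± 0.16 did not pass (adjusted p = 0.0773 by limma). Id1, often used as a readout of BMP signalling, had 1649, 1627 and 2126 against 1951, 2191 and 1607, with the labels interleaved. Its log2 fold change was 0.09 ± 0.18 (adjusted p = 0.761 by limma, 95% interval -0.33 to 0.51), and its sign was negative with equal library totals, at -0.08.

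Smad6 had the lowest adjusted p of the members. The gene (chromosome 9, 63953076 to 64022059, minus strand, GRCm38) had 1000, 1350 and 962 across wild type 1 to 3, against 574, 485 and 436 across labelled knockout 1 to 3. The groups did not overlap, and the gap between their nearest libraries was 388, as wide as the range within wild type. The mean fell from 1104 ± 214 to 498 ± 70.0 (SD, n = 3 each), which is a log2 fold change of -1.14 ± 0.19 (adjusted p = 0.0210 by limma). It stayed called with sex as a covariate (-1.04, adjusted p = 0.0448), without wild type 3 (adjusted p = 0.0479) and without labelled knockout 1 (0.0100). Without any of the other 4 libraries it missed the threshold, with adjusted p-values of 0.0512 to 0.119 and log2 fold changes of -1.20 to -0.98. With the replicate number as a block Smad6 missed it too (adjusted p = 0.0831 by limma).

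Grem1, which traps BMP2, BMP4 and BMP7 and comes from muscle and stromal cells around the crypt, had 257, 264 and 352 across wild type 1 to 3, against 201, 791 and 615 across labelled knockout 1 to 3. Labelled knockout 1 was the lowest library of all, and labelled knockout 2 and 3 were the highest. The log2 fold change of 0.68 ± 0.49 did not pass (adjusted p = 0.380 by limma). Without labelled knockout 1 it was 1.27 and passed at 0.0117, in a fit where both labelled knockout libraries had Xist, and with sex as a covariate it was 0.31 (adjusted p = 0.548). Per kilobase of exon, Grem1 amounted to 8.29% to 9.55% of the 4 ligands' sum in the wild type libraries, to 6.37% in labelled knockout 1, and to 52.2% and 36.8% in labelled knockout 2 and 3.

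Wild type 3 and labelled knockout 1 shared low Pdx1, with segment scores of 1.69 and -0.16 where the other 4 libraries had 5.98 to 7.82. The score is the mean log2 level of 5 proximal markers minus that of 5 ileal ones. Their ileal markers were not alike: Fabp6, an ileal bile acid binding protein named here after its values were seen, had a value of 4 in the first and 1947 in the second. Wild type 3 also had Xist and labelled knockout 1 had Ddx3y, so label and sex cannot be told apart in this pair. Whether the pair is matched in segment was not tested. All 10 members were lower in labelled knockout 1 than in wild type 3, as were 49.7% of all genes tested. The ratio was lowest for Id2 at 0.465 and highest for Bmp4 at 0.923. Between the means of labelled knockout 2 and 3 and of wild type 1 and 2, 7 members were lower, as were 49.0% of all genes tested. Bmp7 and Id2 had ratios of 0.308 and 0.322 there. Grem1 was higher, at 2.70, and so were Bmpr1a and Id1, both at 1.16. In the fit on those 4 libraries 7 of the 10 members passed: Bmp4, Bmp5, Bmp7, Id2, Id3 and Smad6 lower and Grem1 higher, where 26.4% of all genes were called. Without labelled knockout 1 alone, 6 members passed and 20.6% of all genes. In the 4 libraries Bmp7 had a log2 fold change of -1.68 (adjusted p = 0.00167 by limma) and Grem1 of 1.42 (0.00244). With all 6 libraries and a segment score as covariate, the same 6 members were called lower and Grem1 was not called, with 32.2% of all genes called. In the fit on 4 libraries both wild type libraries had Ddx3y and both labelled knockout libraries had Xist, so label and sex cannot be told apart there. Whether the effect of the label differed between the pairs was not tested. Xist was high in the low-score wild type library and in the high-score labelled knockout libraries only. A label effect that differs with gut position therefore cannot be told apart from an effect of sex. This limit holds for every fit with sex as a covariate.

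**Figure D3:**
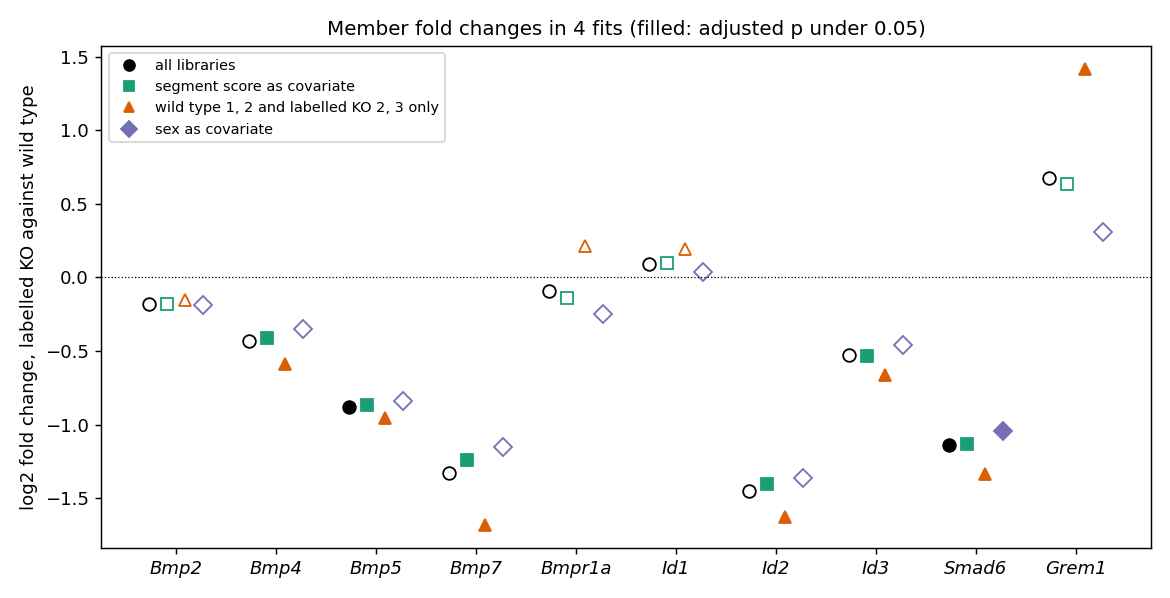
Log2 fold change of each member, labelled knockout against wild type, in 4 limma fits; filled symbols have an adjusted p under 0.05. Bmp5 and Smad6 are filled in the fit on all libraries, and Smad6 alone stays filled in all 4; Grem1 ranges from 0.31 with sex as covariate to 1.42 in wild type 1, 2 and labelled knockout 2, 3.

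Among 48 other genes of the pathway, 38 passed the filter on low values, with a median log2 fold change of -0.24. Of these, 2 were called higher and 5 lower, where 4.85% and 3.94% of all genes tested were. Chrdl2, 1 of the 2 called higher, entered the test only through the libraries where it is high. Bmp8b, the other, reached 10 in wild type 1 and 3 but not in wild type 2, so its entry also needed the labelled knockout libraries. Both calls are given as a description. Of 5 other ligands tested, 1 rose: Bmp8b had 11, 9 and 15 across wild type 1 to 3, against 42, 69 and 74 across labelled knockout 1 to 3, which is a log2 fold change of 2.29 ± 0.32 (adjusted p = 0.0172 by limma). It was lowly expressed in all libraries, and the call was lost without wild type 1 (adjusted p = 0.0745), wild type 2 (0.0963) or labelled knockout 3 (0.0825).

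Of 8 other receptors and co-receptors tested, 2 were called lower and none higher, where 3.94% of all genes tested were called lower. The other 6 were not called. All 8 fold changes were negative, as were 7480 of the 14686 over all genes tested. Acvrl1, the type I receptor ALK1 of endothelial cells, had 742, 750 and 711 against 544, 419 and 426, which is a log2 fold change of -0.67 ± 0.15 (adjusted p = 0.0420 by limma). Acvr2b, a type II receptor shared with activins, had 304, 337 and 301 against 153, 193 and 207, at -0.77 ± 0.17 (0.0388). For both genes the labels' libraries were apart, as they were in that direction for 17.8% of all genes tested. Without any library other than labelled knockout 1 both calls were lost, with adjusted p-values of 0.0648 to 0.191. With sex as a covariate Acvrl1 had -0.60 (adjusted p = 0.0698) and Acvr2b -0.82 (0.0596).

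None of the 4 SMADs that carry the signal was called by limma or limma-voom, while 2 were lower at an unadjusted p under 0.05, as were 14.5% of all genes. Smad9 had 94, 86 and 75 against 19, 46 and 49, at -1.25 ± 0.37 (adjusted p = 0.0788 by limma). Smad5 had 853, 887 and 820 against 687, 623 and 691, at -0.36 ± 0.12 (0.110). Of 6 intracellular or membrane inhibitors, 1 was called lower, where 3.94% of all genes tested were. Smad7, the inhibitory partner of Smad6, had 1625, 2006 and 1396 against 900, 1113 and 974, at -0.74 ± 0.18 (limma adjusted p = 0.0479). Its call was lost without any library other than labelled knockout 1, at 0.0653 to 0.201, and with sex as a covariate, at 0.0884.

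Of 13 secreted antagonists tested besides Grem1, 1 was called higher, 1 lower and 11 neither. Over all genes tested, 4.85% were called higher and 3.94% lower. Chrdl2, a chordin-like antagonist, was nearly undetected in wild type 1 to 3 at 3, 3 and 6 and had 108, 76 and 125 in labelled knockout 1 to 3. Its log2 fold change of 4.40 ± 0.35 depends on the pseudocount, at 3.57 with a pseudocount of 5. It passed the filter on low values only through the labelled knockout libraries, so it had to differ, and its call is given as a description. Nog, encoding noggin, had 87, 68 and 78 against 27, 21 and 18, which is a log2 fold change of -1.79 ± 0.24 (0.0139). It was lost without wild type 1 (0.0758), wild type 2 (0.0797) or labelled knockout 3 (0.0694). Of 2 further targets tested, Atoh8, a helix-loop-helix gene induced by BMP in endothelium and liver, fell from 166, 150 and 165 to 109, 94 and 74, at -0.81 ± 0.19 (0.0476). That call was lost without any library other than labelled knockout 1, at 0.0774 to 0.179, and with sex as a covariate, at 0.0857.

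**Figure D4:**
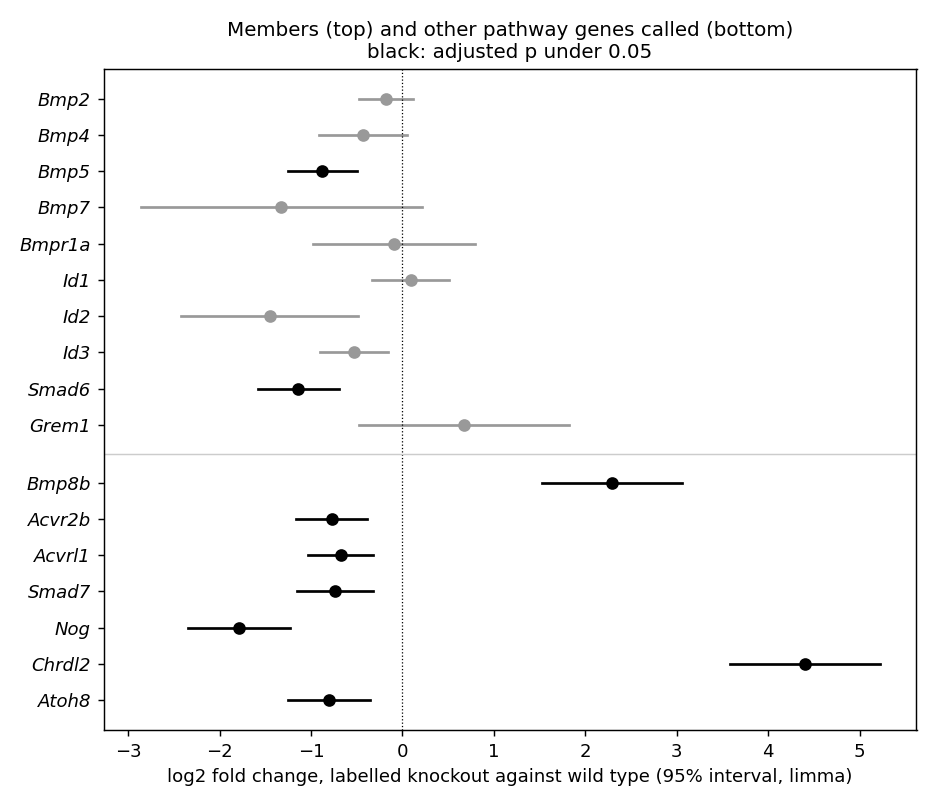
Log2 fold change, labelled knockout against wild type, with 95% intervals from limma on all 6 libraries, for the 10 members (top) and the 7 other pathway genes that were called (bottom). Black marks an adjusted p under 0.05; Chrdl2 lies farthest right at 4.40 and Nog farthest left among the called genes at -1.79.

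Markers of some cell types that use these genes, though not of all, also differed between the labels. Endothelial markers summed to 4508 to 5491 normalised counts in the wild type libraries and to 2789 to 3183 in the labelled knockout libraries. Of these markers, 3 of 6 were called lower, where 3.94% of all genes tested were. All 6 fold changes were negative, as were 7480 of the 14686 over all genes tested. Cdh5 (VE-cadherin) had -0.78 ± 0.14 (adjusted p = 0.0259 by limma) and Pecam1 -0.74 ± 0.14 (0.0290). Endothelium expresses Smad6, Smad7, Id3, Acvrl1 and Atoh8, and the part of these markers in those results was not tested. It also expresses Id1 and the co-receptor Eng, and for both the labels' libraries overlapped. Neither was called by limma, at 0.09 ± 0.18 for Id1 (adjusted p = 0.761) and -0.17 ± 0.18 for Eng (0.543). In bulk tissue fewer cells of a type and less RNA per cell cannot be told apart.

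Subepithelial mesenchyme markers, from cells that make BMP ligands, summed to 9017 to 10354 and to 7714 to 9061, with a median log2 fold change of -0.05, 3 of 7 positive and 1 called lower (Foxf2, -0.70 ± 0.17, limma adjusted p = 0.0480). Smooth muscle markers summed to 35050 to 50521 and to 27302 to 38680, with none of 6 called and 1 lower at an unadjusted p under 0.05. Epithelial markers were higher in sum, at 74938 to 93810 and 126384 to 141745, with 1 of 6 called (Krt8, 1.28 ± 0.20, limma adjusted p = 0.0200). Over all genes tested, 4.85% were called higher. The mean of the sum went from 82234 to 133188, and that of Krt8 alone from 20408 to 48967. Cdh1 and Krt18 overlapped between the labels. B cell markers summed to 264 to 376 and to 56 to 119, with 3 of 4 called lower and the labels apart for all 4. Over all genes tested, 3.94% were called lower and 17.8% were apart and lower. Macrophage markers had 1 of 5 called lower, with sums of 2662 to 5186 and 1832 to 5359. None of 4 T cell markers (sums of 59 to 71 and 57 to 93) or of 5 glial and neuronal markers (315 to 522 and 169 to 271) was called. At an unadjusted p under 0.05 these were 0 and 2, the latter lower, and limma-voom called none of them or of the smooth muscle markers. None of the 43 markers was at 0 in any library, and their part in the BMP results was not tested.

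**Figure D5:**
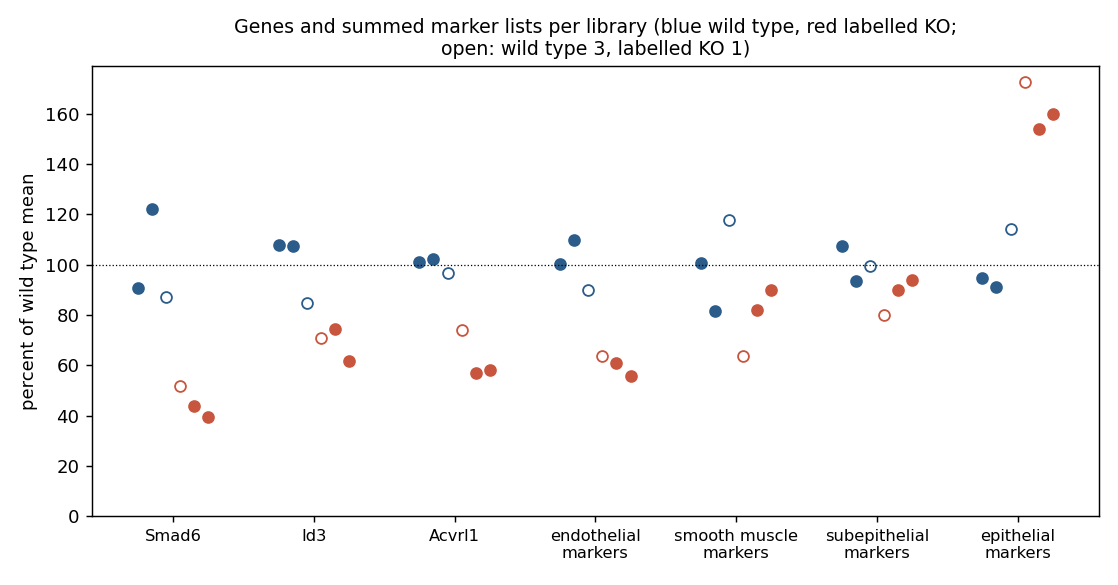
Level of Smad6, Id3 and Acvrl1 and summed levels of 4 marker lists in each library, as percent of the wild type mean, on an axis from 0. Blue points are wild type and red points labelled knockout; open points are wild type 3 and labelled knockout 1. Endothelial markers lie lower in all 3 labelled knockout libraries, as Smad6 does, while epithelial markers lie higher.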

How the data were processed

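Per the submitters' processing notes, TopHat2 2.1.0, HTSeq 0.6.0, DESeq2 and the build mm10 were used, without their order; neither annotation nor strand setting is given in the sources used here, and overlapping or antisense genes could share reads. The values deposited by the authors are whole-number scores, 1 per gene symbol, that look like counts scaled by library and then rounded. Median-ratio factors recomputed from them were nearly equal (1.005 to 1.009) although totals differed, and 3 libraries lacked some low whole numbers. Counting intervals were therefore not computed.

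limma 3.58.1 (R 4.3.3) was run with an intensity trend on log2 values after adding 1, for the 14686 genes that reached 10 in 3 or more libraries, with genotype as the only term, two-sided, Benjamini-Hochberg adjusted over all genes. Fold changes understate those of low genes. Exon lengths and gene coordinates came from GENCODE vM21 (GRCm38), where all 113 listed genes matched. The scripts were tested on simulated data. The members, the lists and the alternatives planned were chosen with earlier results of these data known. All members are named; of the other pathway lists every called gene is named, and in a list with no call the 2 with the lowest p; of the cell marker lists at most 2. Xist, Ddx3y, Pdx1, Fgf15, Fabp6 and Eng were named after their values were seen, as was the sex covariate. Some genes of the lists are not reported here.

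The alternatives changed scaling, pseudocount, filter, variance model, covariates, the replicate block and the libraries used.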

Additional observations from a re-analysis of the deposited data

How the results depend on the processing

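The counts of calls depended most on which libraries and covariates entered. Over all genes the count was 1291, and it was 64 with the replicate number as a block, 4724 with the segment score, 3762 without both libraries of low segment score and 459 with sex as a covariate. Leaving out 1 library gave 28 to 2998. Of the members 2 were called, 0 with the block, 4 with equal library totals, 6 with the segment score, 7 without both low-score libraries and 1 with sex, and 0 to 6 without 1 library. Of the other pathway genes 7 were called, 1 with the block, 3 with no filter on low values, 13 with the segment score, 12 without both low-score libraries and 4 with sex, and 0 to 11 without 1 library. With no filter Acvr2b, Acvrl1, Smad7 and Atoh8 missed the threshold, at adjusted p-values of 0.05001 to 0.0652, and without the intensity trend Acvrl1 (0.0548) and Smad7 (0.0619) did. The cause of these shifts was not tested. Deviations from the group means correlated at -0.37, 0.30 and -0.16 for replicate numbers 1 to 3. Wild type 3 correlated best with labelled knockout 1 (0.41), so not every library correlated best with its own number. With 3 libraries per label that also differed in sex and gut position, these values cannot decide whether the numbers pair the libraries. Signs turned for genes that were not called: Bmpr1a was 0.22 without both low-score libraries and ran from -0.34 to 0.36 when 1 library was left out. Id1 was -0.0847 with equal library totals and ran from -0.013 to 0.21. Mapk3 was -0.0888 with equal totals and -0.25 without both low-score libraries, and ran from -0.10 to 0.22. No other member changed sign in any fit run here. Depth limits Chrdl2 and Bmp8b, whose wild type values were 15 or less.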

Other observations

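A further pair of pathway genes outside the naming rule was picked after their values were seen, and neither passed the test. The labels' libraries were apart for Chrd, as for 19.8% of all genes tested in that direction, and touched at 115 for Id4. Chrd, encoding chordin, had 74, 65 and 69 in the wild type libraries and 105, 86 and 143 in the labelled knockout libraries, at a log2 fold change of 0.65 ± 0.22 (adjusted p = 0.111 by limma). Id4 had 145, 115 and 191 against 101, 86 and 115, at -0.55 ± 0.23 (adjusted p = 0.162).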
